A study of Homo sapiens with 7 samples.

Results

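The cytosolic and mitochondrial chaperones are the proteins that fold other proteins and keep them folded. A list of 34 genes of this system was followed through 7 arrays of SUM159 cells, an established mesenchymal triple-negative breast cancer line. Members were taken by name from the gene symbols, and 32 of the 34 had a probe with a single symbol, out of 18417 genes measured in all. HSF2 and AHSA1 had no such probe in the annotation used here and are not described further. All cells carried a lentiviral hairpin that doxycycline switches on, and all were grown in 2D for 15 days with doxycycline, the controls included. The hairpin was a control on 2 arrays (Ctrl shRNA, CTRL miR in the labels), SHP2 miR1 on 2 arrays (SHP2 sh1) and SHP2 miR2 on 3 arrays (SHP2 sh2). SHP2 is the phosphatase encoded by PTPN11, which relays signals from growth factor receptors to the RAS and ERK pathway. The labels do not say whether cells were cloned, nor whether arrays within a group represent independent cultures. The p-values therefore reflect array-to-array spread, possibly technical.

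Chaperones work in relays. HSP70 proteins bind exposed stretches of an unfolded protein, J proteins deliver the clients and trigger the HSP70 ATPase, and nucleotide exchange factors release them. HSP90 then matures kinases and steroid receptors with the help of cochaperones. The ring-shaped chaperonin TRiC folds actin and tubulin, small heat shock proteins hold aggregating proteins without ATP, and HSPA9, HSPD1 and HSPE1 fold proteins inside mitochondria. HSF1 is the transcription factor that switches many of these genes on after heat or proteotoxic stress, through heat shock elements in their promoters. Cancer cells often depend on this system because they make many unstable proteins.

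Heat shock elements are runs of GAA and TTC in alternation, spaced by 2 bases. They were searched in RefSeq promoter windows (GRCh38.p14) from 250 bases before to 50 bases after each annotated start, which were found for 30 of the 34 members. CCT6A, CRYAB, FKBP4 and HSF1 had no entry. GAANNTTC or TTCNNGAA, each of which reads the same on both strands and may overlap with the other, was in a window of 17 of the 30 members (56.7%) and of 4417 of 27305 genes of the table (16.2%). An element of 3 units was in a window of 7 of the 30 members (23.3%) and of 166 of the 27305 genes (0.608%). These 7 were HSP90AA1, HSP90AB1, CHORDC1, HSPA8, DNAJB6, DNAJA1 and HSPD1. None of the 7 TRiC subunits with a window had 3 units. CCAAT, on either strand, was in a window of 10 of the 30 members (33.3%) and of 10846 genes of the table (39.7%). A match describes the letters only and is not evidence of binding. The stretches around the elements of 5 of these genes are shown because they hold 3 or more units, together with that of HSPB1, which has 2 units and which differed less between arrays than most members. Whether elements went with differences between arrays was not tested. Capitals mark GAA and TTC units of an element. HSP90AA1 (chr14:102087100-102087152, minus strand), HSP90AB1 (chr6:44247758-44247863, plus strand), CHORDC1 (chr11:90223065-90223129, minus strand), HSPA8 (chr11:123062159-123062211, minus strand), DNAJB6 (chr7:157336853-157336905, plus strand) and HSPB1 (chr7:76302471-76302518, plus strand) all lie before the start concerned and are written 5′ to 3′.
HSP90AA1: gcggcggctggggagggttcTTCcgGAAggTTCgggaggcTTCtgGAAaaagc
HSP90AB1: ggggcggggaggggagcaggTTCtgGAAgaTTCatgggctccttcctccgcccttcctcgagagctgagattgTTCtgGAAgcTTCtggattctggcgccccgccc
CHORDC1: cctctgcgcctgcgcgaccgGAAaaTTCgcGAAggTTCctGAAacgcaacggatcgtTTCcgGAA
HSPA8: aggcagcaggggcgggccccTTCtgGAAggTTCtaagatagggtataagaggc
DNAJB6: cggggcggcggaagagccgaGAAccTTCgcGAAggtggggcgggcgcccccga
HSPB1: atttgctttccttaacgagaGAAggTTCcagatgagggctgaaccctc

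HSPD1 and HSPE1 lie head to head on chromosome 2 and share the 104 bases between their nearest annotated starts (chr2:197500275-197500378, shown on the plus strand, in the direction of HSPE1). The stretch is shown because a shared promoter makes this pair of genes a natural comparison on the arrays. No element of 2 units was in it, and the element of HSPD1 lay before another annotated start.
HSPD1 to HSPE1: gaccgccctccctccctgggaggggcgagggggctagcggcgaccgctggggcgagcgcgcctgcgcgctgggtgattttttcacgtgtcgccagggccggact

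The arrays were Human Gene 1.0 ST, and their values are on the log2 scale, after robust multi-array averaging (RMA) by the authors. PTPN11 was at 9.53 and 9.18 with Ctrl shRNA and between 6.93 and 7.96 on the 5 SHP2 arrays, a log2 fold change of -1.80 over both hairpins (standard error 0.34, adjusted p = 0.758 from limma). Of 8 markers of mesenchymal cells, 6 were in the brightest 25% of genes in the controls, up to the 99.97 percentile for FN1, while CDH2 (69.0 percentile) and TWIST1 (62.5) were not. The 8 epithelial or luminal markers ran from the 1.25 percentile for EPCAM to the 52.1 for GATA3 and the 67.8 for ERBB2. The blood marker PTPRC and the endothelial marker CDH5 were at 4.10 and 5.77 in the controls. The brightest of 6 blood and 6 endothelial markers was CD68, at the 82.3 percentile of genes. The second arrays of both SHP2 hairpins, SHP2 sh1 replicate 2 and likewise SHP2 sh2 replicate 2, stood apart from the others. Over all probes their correlation with the other 5 arrays ran from 0.886 to 0.965, against 0.981 to 0.992 among those 5 and 0.972 between the pair. In RNA of whole cultures, fewer cells of a kind and less RNA per cell cannot be told apart.

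Chaperone RNA was lower than in controls on the 2 arrays that stood apart and close to the controls on the other 3 SHP2 arrays. Against the mean of the controls, 28 of 32 members were lower on SHP2 sh1 replicate 2 (median -0.76 on the log2 scale) and 30 of 32 on SHP2 sh2 replicate 2 (median -1.28). On SHP2 sh1 replicate 1 the median was 0.14, with 26 members above the control mean. It was -0.05 on SHP2 sh2 replicate 1, with 14 above, and 0.13 on SHP2 sh2 replicate 3, with 22 above. CRYAB, which encodes a small heat shock protein, went the other way and was higher on all 5 SHP2 arrays, and HSF1 was within 0.34 of the control mean throughout. The map of differences by array shows both of these columns as the ones where the members were low.

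**Figure D1:**
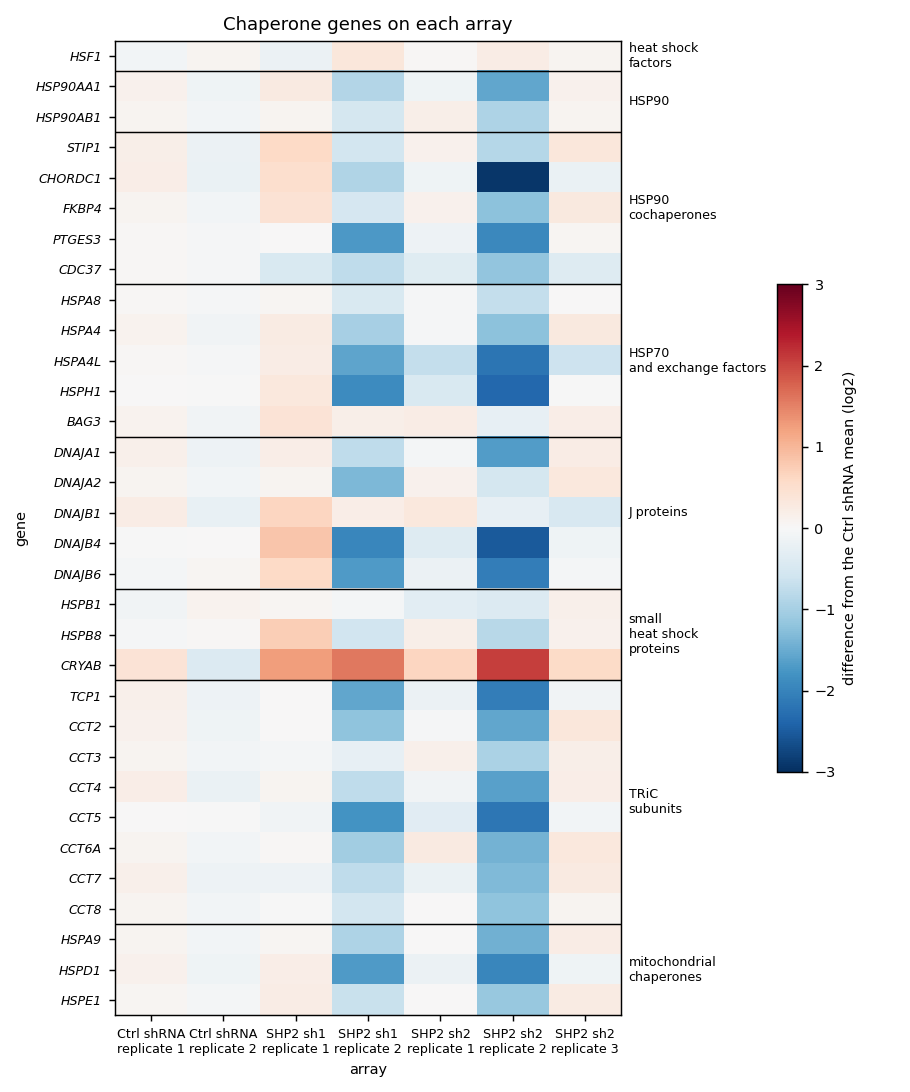
Difference of each of the 32 measured chaperone genes from the Ctrl shRNA mean (log2) on each of the 7 arrays, with genes in rows by role and the colour running from blue (lower) to red (higher). The columns of SHP2 sh1 replicate 2 and SHP2 sh2 replicate 2 are mostly blue, down to -2.92 for CHORDC1, and CRYAB is red on all 5 SHP2 arrays, up to 2.08.

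Bright genes as a whole were lower on the same pair of arrays. Of the 32 members, 27 were in the brightest 25% of genes by control level. On SHP2 sh1 replicate 2 those 4605 genes had a median of -0.61, and on SHP2 sh2 replicate 2 one of -1.01, where 80.5% and 88.0% of them were below the control mean. The median of all 18417 genes was 0.10 and 0.18 there, with 10618 and 10421 of them above the control mean. Of the members, 20 and 21 of 32 lay below the median of the brightest genes on these arrays. On SHP2 sh1 replicate 1, SHP2 sh2 replicate 1 and SHP2 sh2 replicate 3 the brightest genes had medians of 0.004, -0.18 and -0.04. The members had medians of 0.14, -0.05 and 0.13 there, and 6, 7 and 9 of 32 lay below those of the brightest genes. On SHP2 sh2 replicate 1, 76.5% of the brightest genes were below the control mean. The members thus went down with bright genes on the pair that stood apart. The part of signal brightness in their values was not tested.

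Averaged over both hairpins and set against Ctrl shRNA, 28 of 32 members had a log2 fold change below 0, with a median of -0.39. With cyclic loess this median was -0.137, with 21 members below 0, and with array weights -0.194, with 24 below 0. The weights were lowest for SHP2 sh2 replicate 2 (0.116) and equal for both SHP2 sh1 arrays (0.262). They therefore could not set SHP2 sh1 replicate 2 below its partner. Among the deposited values the median was -0.35 for the brightest 25% of genes, of which 83.6% were below 0, and 0.08 for all genes, of which 41.95% were. With Benjamini-Hochberg adjustment and a threshold of 0.05, limma called 0 of 32 members and 0% of all genes, and the adjusted p of members ran from 0.758 to 0.956. At an unadjusted p under 0.05, 0 members were lower (1.25% of all genes) and 1 was higher, CRYAB (0.69% of all genes). With SHP2 sh1, 26 of 32 were below 0, with a median of -0.33 (-0.163 with cyclic loess). None passed the adjusted threshold there (0% of all genes), and at an unadjusted p under 0.05 there were 0 lower members (0.456% of all genes) and 1 higher (0.635% of all genes), again CRYAB. With SHP2 sh2, 29 were below 0, with a median of -0.38 (-0.0507 with cyclic loess and -0.0174 with array weights), and 0 passed (0% of all genes adjusted, and 1.81% lower and 0.532% higher unadjusted, with 0 members in each). All 3 comparisons use the same control arrays.

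Members that separated from the controls array by array were no larger a share than such genes among all genes. Both CDC37 and CCT5 were lower on all 5 SHP2 arrays than on either control array, which is 2 of 32 members where 7.17% of all genes did so. CRYAB was the only member above both controls on all 5, where 8.13% of all genes were. With SHP2 sh1, 2 members lay below both controls on both arrays (12.3% of all genes), namely CDC37 and CCT5, and 2 lay above (12.8%), namely CRYAB and BAG3. With SHP2 sh2, 4 members lay below both controls on all 3 arrays (16.1% of all genes), namely CDC37, CCT5, HSPA4L and DNAJB4, and CRYAB alone lay above (24.2%).

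Heat shock factor 1 differed little between groups. HSF1 was at 8.51 and 8.68 on the control arrays, 8.43 and 8.93 under SHP2 sh1, and 8.63, 8.81 and 8.68 under SHP2 sh2. The groups overlapped, and the highest value came from SHP2 sh1 replicate 2, an array on which most chaperones were low. Its log2 fold change for the mean of both hairpins was 0.10 (standard error 0.20), from 8.59 ± 0.12 (SD, n = 2) in controls.

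Of the HSP90 pair, the inducible HSP90AA1 was lower than the constitutive HSP90AB1 in its difference from controls on both arrays that stood apart. HSP90AA1 was at 11.52 and 11.27 on the control arrays, 11.65 and 10.51 under SHP2 sh1, and 11.26, 9.83 and 11.52 under SHP2 sh2. HSP90AB1 was at 11.74 and 11.60 on the control arrays, 11.77 and 11.15 under SHP2 sh1, and 11.85, 10.73 and 11.77 under SHP2 sh2. On SHP2 sh1 replicate 2 and SHP2 sh2 replicate 2 the differences from the control mean were -0.89 and -1.56 for HSP90AA1 and -0.52 and -0.94 for HSP90AB1, while on the other 3 SHP2 arrays they ran from -0.13 to 0.26 and from 0.09 to 0.17. For the mean of both hairpins the log2 fold changes were -0.42 (standard error 0.52) and -0.22 (standard error 0.36).

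Among the cochaperones of HSP90, CDC37 was the member with the most even difference over arrays. CDC37 hands protein kinases to HSP90. Its RNA was at 9.36 and 9.28 on the control arrays, 8.87 and 8.56 under SHP2 sh1, and 8.95, 8.14 and 8.92 under SHP2 sh2. The SHP2 arrays did not overlap with the controls, and the 3 arrays that did not stand apart differed from the control mean by -0.45, -0.36 and -0.39. Its log2 fold change was -0.62 (standard error 0.27, unadjusted p = 0.058, adjusted p = 0.758 from limma). PTGES3, or p23, which steadies HSP90 bound to ATP, was at 9.61 and 9.56 on the control arrays, 9.60 and 7.86 under SHP2 sh1, and 9.44, 7.66 and 9.64 under SHP2 sh2. The arrays that stood apart were lowest, and SHP2 sh2 replicate 1 was also below both controls, with a difference of -0.15 from their mean. CHORDC1, an HSP90 partner, was at 9.28 and 8.86 on the control arrays. It was at 9.57 and 8.16 under SHP2 sh1, and at 8.94, 6.15 and 8.87 under SHP2 sh2. The 6.15 on SHP2 sh2 replicate 2 was the value farthest below its controls of any member. STIP1, which bridges HSP70 and HSP90, and FKBP4, an immunophilin of steroid receptors, were higher than the control mean on the other 3 SHP2 arrays, by 0.13 to 0.59 for STIP1 and by 0.13 to 0.42 for FKBP4. On the pair that stood apart STIP1 differed from the control mean by -0.55 and -0.87 and FKBP4 by -0.51 and -1.22.

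In the HSP70 system, the exchange factors of the HSP110 family had wider differences than HSPA8 itself. HSPA8, the constitutive HSP70, was at 13.06 and 12.98 on the control arrays, 13.07 and 12.56 under SHP2 sh1, and 12.99, 12.30 and 13.03 under SHP2 sh2. Its differences of -0.46 and -0.71 on the arrays that stood apart were the smallest of the HSP70 group apart from those of BAG3. In the controls HSPA8 was at the 100 percentile of genes, and the part of this signal level in its differences was not tested. HSPH1, the HSP110 protein induced by heat, was at 10.38 and 10.34 on the control arrays, 10.67 and 8.47 under SHP2 sh1, and 9.89, 8.0 and 10.34 under SHP2 sh2. HSPA4L, its relative best known from testis, was at 10.18 and 10.10 on the control arrays, 10.35 and 8.56 under SHP2 sh1, and 9.42, 7.94 and 9.52 under SHP2 sh2. All 3 SHP2 sh2 arrays lay below both controls for HSPA4L, and SHP2 sh1 replicate 1 lay above them. Its log2 fold change was -0.68 with SHP2 sh1 and -1.18 with SHP2 sh2 (adjusted p = 0.667 from limma). The third of these relatives, HSPA4, had differences from the control mean of -0.05 to 0.29 on the other 3 SHP2 arrays and of -0.99 and -1.23 on the pair that stood apart. BAG3, an exchange factor that directs clients of small heat shock proteins to autophagy, was at 8.58 and 8.39 on the control arrays, 8.90 and 8.67 under SHP2 sh1, and 8.71, 8.23 and 8.69 under SHP2 sh2. BAG3 was above both controls on 4 of the 5 SHP2 arrays, and its log2 fold change was 0.18 (standard error 0.21).

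The J proteins differed among themselves. DNAJB4 was at 7.66 and 7.66 on the control arrays, 8.49 and 5.70 under SHP2 sh1, and 7.27, 5.15 and 7.54 under SHP2 sh2, the widest spread within a hairpin among the members with SHP2 sh1 (SD 1.98, n = 2). DNAJB6, which keeps polyglutamine proteins from aggregating, was at 9.77 and 9.87 on the control arrays, 10.42 and 8.12 under SHP2 sh1, and 9.64, 7.73 and 9.77 under SHP2 sh2. Both were above their controls on SHP2 sh1 replicate 1 and far below them on SHP2 sh1 replicate 2, so that the mean of that hairpin describes neither array. DNAJA2 was at 8.10 and 7.92 on the control arrays, 8.10 and 6.67 under SHP2 sh1, and 8.15, 7.47 and 8.32 under SHP2 sh2, and was lower on SHP2 sh1 replicate 2 than on SHP2 sh2 replicate 2, in contrast to most members. DNAJA1 differed from the control mean by -0.75 and -1.67 on the arrays that stood apart. DNAJB1, the J protein most closely tied to the heat shock response, differed there by only 0.20 and -0.26, and its lowest array was SHP2 sh2 replicate 3, at 8.57 against 9.28 and 8.85 in the controls.

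The 3 small heat shock proteins differed from each other. HSPB1, or HSP27, was at 11.82 and 12.01 on the control arrays, 11.97 and 11.85 under SHP2 sh1, and 11.60, 11.49 and 12.07 under SHP2 sh2. Its groups overlapped, and its values lay between 11.49 and 12.07. HSPB1 was at the 99.8 percentile of genes in the controls. CRYAB, or alpha-B-crystallin, was at 5.77 and 4.93 on the control arrays, 6.61 and 6.93 under SHP2 sh1, and 5.98, 7.43 and 5.92 under SHP2 sh2. All 5 SHP2 arrays lay above both controls, with the highest values on the arrays that stood apart. The log2 fold change of CRYAB was 1.42 with SHP2 sh1, 1.10 with SHP2 sh2 and 1.26 for their mean (standard error 0.47, unadjusted p = 0.034, adjusted p = 0.758 from limma). CRYAB was dim in the controls, at the 19.1 percentile of all genes, and its control arrays had an SD of 0.59 (n = 2), the widest of any member. It was highest on the arrays that stood apart. The part of those arrays in the size of the difference was not tested beyond the values without them, given further on. The part of its low signal level was not tested either. HSPB8, the partner of BAG3, was at 8.61 and 8.67 on the control arrays, 9.38 and 8.08 under SHP2 sh1, and 8.82, 7.81 and 8.77 under SHP2 sh2, lowest on the pair of arrays that stood apart and highest on SHP2 sh1 replicate 1.

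All 8 subunits of TRiC had a log2 fold change below 0 for the mean of both hairpins. They ran from -0.91 for CCT5 (standard error 0.67) to -0.17 for CCT3 (standard error 0.34). Of these subunits 7 were in the brightest 25% of genes, of which 83.6% were below 0. The differences were widest on the 2 arrays that stood apart. Without those arrays CCT2, CCT3, CCT4, CCT6A and CCT8 were above 0, and CCT5, TCP1 and CCT7 below. CCT5 was at 11.08 and 11.07 on the control arrays, 10.96 and 9.29 under SHP2 sh1, and 10.72, 8.90 and 11.01 under SHP2 sh2. It lay below both controls on all 5 SHP2 arrays, with a difference from the control mean of only -0.07 on SHP2 sh2 replicate 3. TCP1 was at 11.27 and 10.94 on the control arrays, 11.12 and 9.54 under SHP2 sh1, and 10.94, 9.02 and 11.01 under SHP2 sh2, and CCT7 at 10.45 and 10.14 on the control arrays, 10.15 and 9.54 under SHP2 sh1, and 10.10, 8.97 and 10.56 under SHP2 sh2. Subunits of the same ring differed in size on SHP2 sh1 replicate 2, from -1.79 for CCT5 and -1.57 for TCP1 to -0.24 for CCT3. On SHP2 sh2 replicate 2 they ran from -2.18 for CCT5 to -0.94 for CCT3. CCT2, CCT4, CCT6A and CCT8 lay between, at -1.20, -0.77, -1.03 and -0.56 on the former and at -1.56, -1.63, -1.41 and -1.20 on the latter array. On the other 3 SHP2 arrays the 8 subunits stayed within -0.35 and 0.33 of the control mean.

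The mitochondrial chaperones were lowest on the same 2 arrays. HSPD1, or HSP60, was at 10.64 and 10.36 on the control arrays, 10.69 and 8.79 under SHP2 sh1, and 10.32, 8.54 and 10.37 under SHP2 sh2. HSPE1, or HSP10, its lid, was at 6.97 and 6.84 on the control arrays, 7.14 and 6.25 under SHP2 sh1, and 6.93, 5.77 and 7.15 under SHP2 sh2. HSPA9, the mitochondrial HSP70, was at 10.53 and 10.37 on the control arrays, 10.51 and 9.53 under SHP2 sh1, and 10.47, 9.01 and 10.67 under SHP2 sh2. On the arrays that stood apart HSPD1 differed from its control mean by -1.71 and -1.96 and HSPE1, which shares its promoter, by -0.66 and -1.13. The log2 fold changes of HSPD1, HSPE1 and HSPA9 for the mean of both hairpins were -0.76 (standard error 0.67), -0.25 (standard error 0.43) and -0.42 (standard error 0.50). RefSeq lists 22 pseudogenes named after HSPD1, 28 after HSPE1 and 20 after HSPA8, and whether probes of these genes also bind RNA of such copies was not tested.

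**Figure D2:**
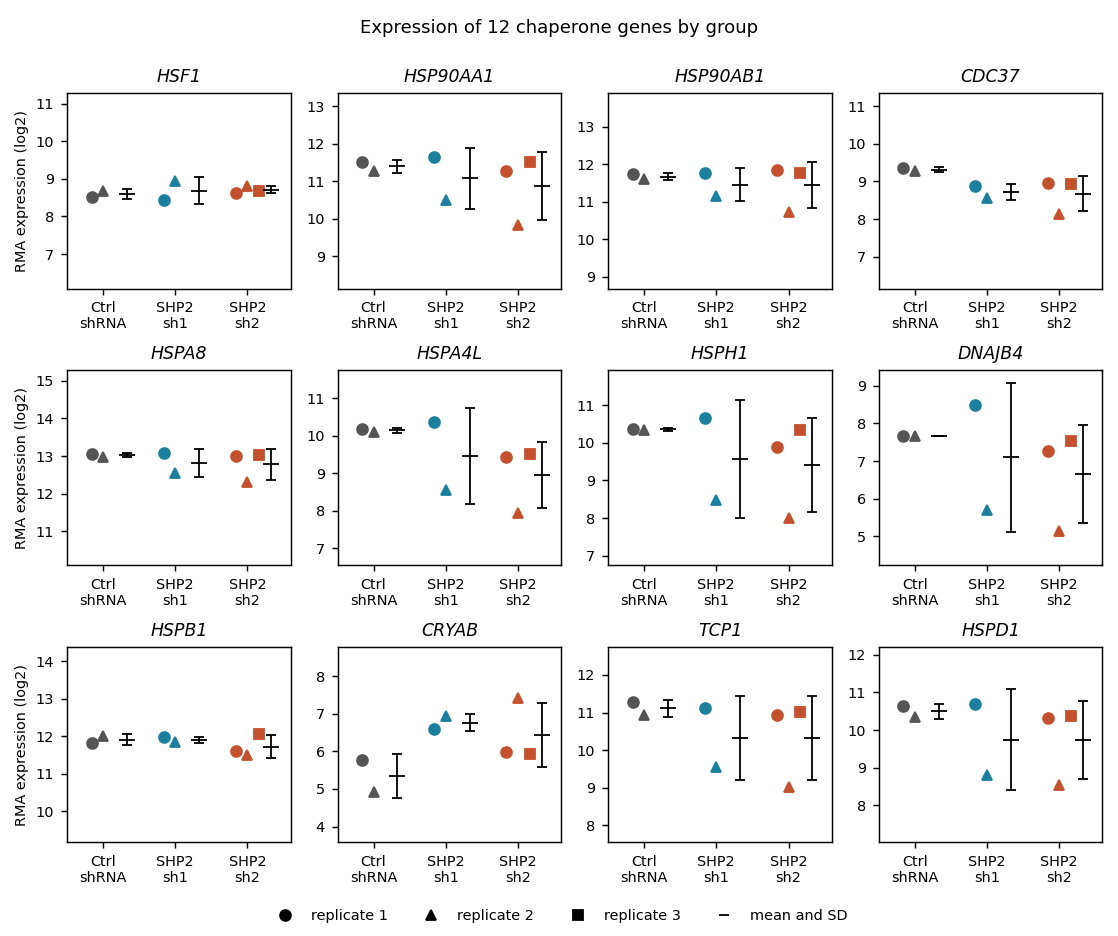
RMA expression (log2) of 12 chaperone genes plotted by group, where each point is an array, its shape marks the replicate number and the bar to its right shows mean and SD. Every panel spans the same number of log2 units. The replicate 2 triangles of both SHP2 hairpins lie lowest for HSPH1 (8.47 and 8.0), TCP1 (9.54 and 9.02) and HSPD1 (8.79 and 8.54), but highest for CRYAB (6.93 and 7.43).

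Other genes of protein folding were listed by pathway, with earlier results of these data known. The medians of these lists were also lowest on the arrays that stood apart, to different degrees. None of the genes in these 5 lists passed the adjusted threshold in limma, and at an unadjusted p under 0.05 those that passed were all of the HSF1 list and lower. They were 1 gene averaged over both hairpins (1.25% of all genes), 2 with SHP2 sh2 (1.81%), 1 between hairpins (0.57%) and 0 with SHP2 sh1 (0.456%). Of 13 prefoldin and chaperonin helpers, 10 were below 0 averaged over both hairpins, and their median was -0.39. URI1, a prefoldin relative, was at -0.68 and UXT at -0.54. Of 19 mitochondrial proteostasis genes 17 were below 0, with a median of -0.32. LONP1, a protease of the mitochondrial matrix, had -0.35, and TOMM20, an import receptor, -0.82. Of 18 ER chaperones 12 were below 0, with a median of -0.23, where the J proteins DNAJC10 and DNAJB11 had -1.20 and -0.72. Other cytosolic chaperone partners were nearer to 0. Of 27, 16 were below 0, with a median of -0.10, where the phosphatase PPP5C had -0.36 and HSPA6, a strictly inducible HSP70, had 0.38. In a list of 17 other genes that HSF1 induces, 9 were above 0 and 8 below, and the median was 0.00065. There TCP11L2 had -0.71 and SPHK1, a sphingosine kinase, -0.58. On SHP2 sh2 replicate 2 the medians ran from -0.95 for the prefoldin list to -0.33 for the genes HSF1 induces, against -1.28 for the chaperones.

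**Figure D3:**
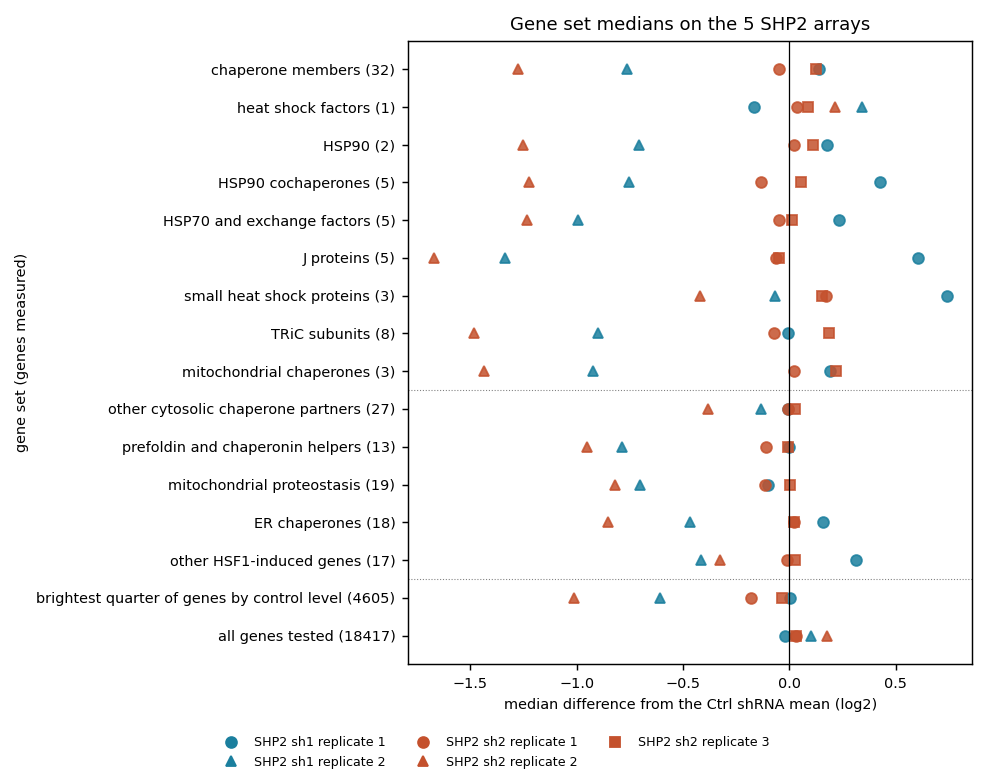
Median difference from the Ctrl shRNA mean (log2) of the chaperones, their role groups, 5 other gene lists, the brightest 25% of genes and all genes, on each of the 5 SHP2 arrays, with the colour giving the hairpin, the symbol the replicate number and the number of genes in brackets. Replicate 2 triangles lie left of the other symbols for 7 of the 8 role groups, with HSF1, the single gene of its group, as the exception, and the brightest genes lie left with them at -0.61 and -1.01.

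Leaving out SHP2 sh1 replicate 2 and SHP2 sh2 replicate 2, a choice made after seeing the data, turned the direction of most members. For the mean of both hairpins, 24 of 32 were then above 0 and 8 below, with a median of 0.10, where the brightest 25% of genes had a median of -0.05 and all genes one of 0.0018. SHP2 sh1 is then 1 array, assumed to vary like the other groups. limma called 0 members and 0% of all genes. At an unadjusted p under 0.05, 2 members were lower (4.11% of all genes), CDC37 at -0.42 and HSPA4L at -0.23. There 5 were higher (4.25% of all genes), CRYAB at 0.93, HSPB8 at 0.44, FKBP4 at 0.32, BAG3 at 0.31 and DNAJB6 at 0.25. Of these 7, the hairpins went opposite ways in HSPA4L, at 0.21 with SHP2 sh1 and -0.67 with SHP2 sh2, and in DNAJB6, at 0.61 and -0.11. For the average over both hairpins CRYAB, CDC37, BAG3, HSPA4L, CCT5, TCP1, CCT7, PTGES3, HSPB1 and DNAJB1 had the same direction as with all arrays, and the other 22 had the opposite one.

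**Figure D4:**
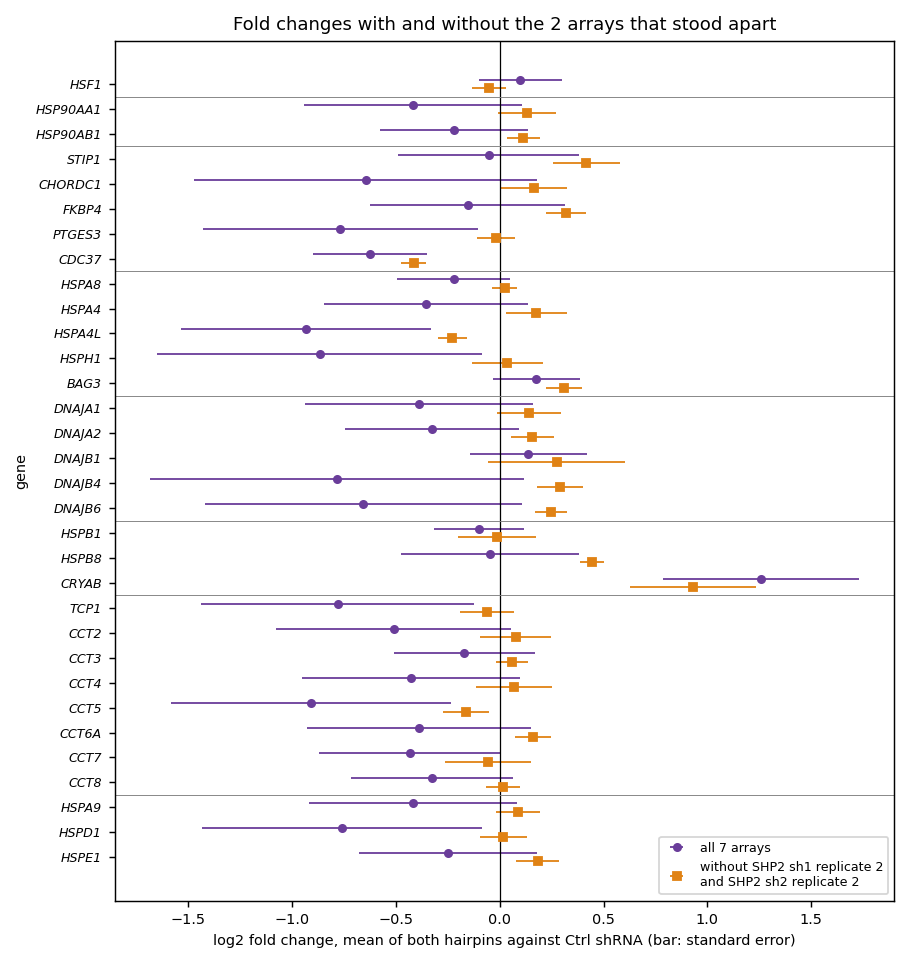
Log2 fold change of the 32 chaperone genes averaged over both hairpins and set against Ctrl shRNA, with its standard error as a bar, from all 7 arrays (circles) and without the 2 arrays that stood apart (squares). The circles lie left of 0 for 28 genes and the squares right of 0 for 24, with CRYAB right (1.26 and 0.93) and CDC37 left (-0.62 and -0.42) in both.

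Between the hairpins, 22 of 32 members had a lower value with SHP2 sh2 than with SHP2 sh1, and the median difference was -0.08. The brightest 25% of genes had a median of -0.10 in the same comparison. Differences ran from -0.88 for CHORDC1 to 0.59 for DNAJA2. limma called 0 members (0% of all genes), and at an unadjusted p under 0.05 there were 0 lower members (0.57% of all genes) and 0 higher (0.0597% of all genes). The median was 0.37 without SHP2 sh1 replicate 1, 0.34 without SHP2 sh2 replicate 2 and -0.58 without SHP2 sh1 replicate 2, so that its direction rested on single arrays.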

How the data were processed

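The deposited values are log2 expression of 7 GeneChip Human Gene 1.0 ST arrays, which the authors read with oligo (no version stated) and passed through robust multi-array averaging (background correction, quantile normalization, summary of probes). They ran from 1.94 to 13.9 and were used as given. Of 33297 probes, 19460 had 1 gene symbol in the platform annotation, updated by gene ID through RefSeq (GRCh38.p14). The probe with the largest interquartile range stood for each of 18417 genes. Of the members, only DNAJB6 had more than 1 such probe. limma (3.58.1, R 4.3.3) fitted the 3 group means with eBayes, with two-sided tests, Benjamini-Hochberg adjustment over all genes and a threshold of 0.05. Array numbers limit the precision. The limma fit was tested on simulated data, with planted shifts larger than the median of the members and without arrays that stood apart. The promoter search was checked on a constructed sequence. The members, role groups, lists and alternatives were chosen with earlier results of these data known, so no test was made over a list. Members of each role group to be given array by array were the HSF, HSP90, mitochondrial and small heat shock genes and up to 3 of smallest p in each other group, with 2 of smallest p from each other list. HSPA8 was added after its values were seen. Alternatives were another probe or the mean of probes, dim genes left out, cyclic loess, median centring, a trend, weights for arrays, a fit restricted to both groups compared, a replicate block, and leaving out each array. The planned comparison of protein sequences was not run.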

Additional observations from a re-analysis of the deposited data

How the results depend on the processing

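Values are log2 fold changes or their medians averaged over both hairpins where no comparison is given. The causes of the shifts were not tested. The 32 members gave 0 calls in each comparison under each alternative that was run. Over all genes the calls were 0 as well, except 122 with SHP2 sh2 under array weights, where the members gave 0. The median of the members was below 0 for the mean of both hairpins in every setting but 1, from -0.648 to -0.125 with single arrays left out, and 0.101 without the 2 arrays that stood apart, which was chosen after seeing the data. There the members below 0 numbered 6 with SHP2 sh1 (median 0.141), 13 with SHP2 sh2 (median 0.0491) and 8 for the mean. The medians by role became -0.0529 (HSF1), 0.122 (HSP90), 0.165 (cochaperones), 0.0361 (HSP70 group), 0.247 (J proteins), 0.444 (small heat shock proteins), 0.0379 (TRiC) and 0.0889 (mitochondrial). Members that changed sign there were FKBP4 0.318, HSPB8 0.444, DNAJB6 0.247, CCT2 0.077, CCT3 0.0608, CCT4 0.0679, CCT6A 0.159, CCT8 0.015, CHORDC1 0.165, DNAJA1 0.141, DNAJA2 0.157, DNAJB4 0.291, HSF1 -0.0529, HSP90AA1 0.131, HSP90AB1 0.113, HSPA4 0.177, HSPA8 0.0247, HSPA9 0.0889, HSPD1 0.0167, HSPE1 0.182, HSPH1 0.0361 and STIP1 0.417. Cyclic loess left 18 members below 0 with SHP2 sh2, gave medians of 0.0563 for HSP90 and 0.281 for small heat shock proteins, and turned the sign of CCT3 0.155, FKBP4 0.0922, HSP90AB1 0.158, HSPA8 0.153, HSPB1 0.281, HSPB8 0.181 and STIP1 0.266. Array weights also left 18 below 0 with SHP2 sh2 and 6 between hairpins (median 0.263), gave 0.118 for small heat shock proteins, and turned CCT3 0.00336, FKBP4 0.0479, HSPB8 0.118 and STIP1 0.0887. These weights were equal for both SHP2 sh1 arrays and set only SHP2 sh2 replicate 2 below the others of its hairpin. With single arrays left out, where a lone array is assumed to vary like the other groups, the members below 0 ran from 6 to 28 with SHP2 sh1 (medians -0.762 to 0.141), from 13 to 30 with SHP2 sh2 (-0.674 to 0.0491) and from 5 to 31 between hairpins (-0.582 to 0.366). The sign turned without SHP2 sh1 replicate 2 for SHP2 sh1, without SHP2 sh2 replicate 2 for SHP2 sh2, and without SHP2 sh1 replicate 1 or SHP2 sh2 replicate 2 between hairpins. The small heat shock proteins ran from -0.13 to 0.28, HSF1 from -0.0272 to 0.227, CCT3 from -0.267 to 0.0144, DNAJA2 from -0.683 to 0.0309, DNAJB1 from -0.0789 to 0.353, FKBP4 from -0.386 to 0.0858, HSPB8 from -0.374 to 0.28 and STIP1 from -0.338 to 0.233. The other alternatives changed no direction of these results. Only dim genes being left out removed members, HSPE1 and CRYAB. The fit of only the arrays compared gave no value for the mean of both hairpins.

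The labels give no shared source for same-numbered arrays. The correlation of their deviations was -0.06 between Ctrl shRNA and SHP2 sh1, 0.02 and -0.03 between Ctrl shRNA and SHP2 sh2, and 0.62 and 0.85 between hairpins, where both arrays that stood apart carry number 2, so the numbers were not taken as pairs with the controls. In a group of 2 arrays the deviations mirror each other, so 0.62 and 0.85 are not separate observations. With the replicate block the median of the members was -0.56, and it was -0.674 with SHP2 sh2 and -0.313 between hairpins, with 0 called in each comparison. Number 3 occurs only in SHP2 sh2, so the block takes that array out of the comparisons. The SHP2 sh2 median equals that without SHP2 sh2 replicate 3. With the block, 10 of 32 members passed an unadjusted p under 0.05 averaged over both hairpins, against 1 without it. Of these 10, CRYAB was higher (1.39) and the others were lower. Of all 18417 genes 2427 passed there, against 358 without the block. With SHP2 sh2 15 of 32 members passed, against 0 without the block. Of the 18417 genes 3323 passed with SHP2 sh2, against 432 without the block.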

Other observations

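The measured members were split by whether a promoter window held a heat shock element of at least 2 units. On SHP2 sh1 replicate 2 the median difference from the control mean was -0.89 for the 17 measured members with such an element and -0.75 for the 11 without. On SHP2 sh2 replicate 2 it was -1.56 and -1.20. On SHP2 sh1 replicate 1 it was 0.20 and 0.01, on SHP2 sh2 replicate 1 it was -0.10 and -0.05, and on SHP2 sh2 replicate 3 it was 0.09 and 0.18. Split by an element of 3 units, the 7 members with it and the 21 without had medians of -0.89 and -0.77 on SHP2 sh1 replicate 2 and of -1.67 and -1.23 on SHP2 sh2 replicate 2. On the other arrays these were 0.20 and 0.09 (SHP2 sh1 replicate 1), -0.13 and -0.05 (SHP2 sh2 replicate 1), and 0.01 and 0.15 (SHP2 sh2 replicate 3). These are descriptions with no test, and the genes of each set share the same arrays.

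DNAJB6 had 2 probes with a single symbol. The probe not used read 8.63 and 8.88 on the control arrays, 9.29 and 7.22 under SHP2 sh1, and 8.46, 7.14 and 8.54 under SHP2 sh2, the same order of arrays within each group as for the probe used.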
